A study of Mus musculus with 115 samples.

Results

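Mup3, Mup20, Mup21, Hsd3b5, Elovl3, Selenbp2, Bcl6 and Cux2 are 8 genes of mouse liver whose transcription is known to depend on the pulses of growth hormone in the blood of males. They were taken by symbol from a table of 37315 genes. The symbol Cux2 has a second entry, a pseudogene with 0 reads in every library, which was set aside. Liver, brain (one hemisphere), hairless abdominal skin and globin-depleted whole blood came from male C57BL/6 mice (C57BL/6J in the study's methods) aged 2, 9, 15, 24 and 30 months, with no treatment or engineered allele named in the labels. Liver had 4, 5, 5, 5 and 5 libraries at these ages, and the values below are CPM, reads of a gene scaled to a common library size. Brain had 39 libraries, skin 25 and blood 24. Liver libraries held 20190745 to 46592449 counted reads. Within a tissue each library was taken as one mouse. Brain libraries 4 to 8 of 9 and 15 months were suspected to be near-identical, so fewer mice than libraries may stand behind brain. They were kept in the main brain fit and left out in an alternative. Blood and skin libraries share 24 title numbers and were taken to come from the same mice there, and no number is shared between other tissues. Only males were sampled, at 1 time point per animal, and growth hormone itself was not measured.

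Growth hormone leaves the pituitary of male rodents in separated bursts and that of females almost continuously. In hepatocytes each burst engages the receptor GHR and the kinase JAK2, which activate the transcription factor STAT5B, and genes that need the intermittent signal become male-biased. Mup3, Mup20 and Mup21 encode major urinary proteins, small lipocalins that the liver secretes and male mice excrete as carriers of pheromones, and MUP20 is itself a male pheromone called darcin. Hsd3b5 encodes a ketosteroid reductase of male liver, Elovl3 an elongase of very long chain fatty acids and Selenbp2 a selenium-binding protein. Bcl6 and Cux2 encode transcriptional repressors. BCL6 is male-biased in mouse liver and represses female-biased genes, and CUX2 is female-biased there and represses male-biased genes.

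The Mup genes stand in a cluster on chromosome 4. In GRCm38 Mup20 spans chr4:62050234-62054158, Mup3 chr4:62083476-62087342 and Mup21 chr4:62147932-62150863, all on the minus strand. Selenbp2 (chr3:94693556-94704413) and Hsd3b5 (chr3:98618634-98630252) lie on chromosome 3, Cux2 (chr5:121856366-122050102) on chromosome 5, Bcl6 (chr16:23965052-23988852) on chromosome 16 and Elovl3 (chr19:46131897-46135694) on chromosome 19. Reads were 50 bases long, so the share of a gene's 50-base words that also occur in transcripts of other genes shows how far reads can be exchanged. This share was 13.3% for Mup3 and 19.3% for Mup21, which shared mostly with each other. It was 50.5% for Mup20, mainly with the pseudogene Mup-ps19, 43.9% for Selenbp2, all with Selenbp1, and 21.2% for Hsd3b5. It was 0.197% for Cux2 and 0% for Bcl6 and Elovl3. For 19 further Mup genes the share ran from 4.0 to 100% with a median of 84.0%. The values of Mup20, Selenbp2 and Hsd3b5 are uncertain to the extent of their shared words.

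Promoters from 250 bases before to 50 bases after a start site (RefSeq, GRCm38.p6) were given for 6 of the 8 members, with 8 windows in all. The windows of Mup3 (chr4:62087268-62087567) and Mup21 (chr4:62150792-62151091) are shown because both genes varied almost in parallel, and the minus strand is written 5′ to 3′. Capitals mark matches to ATCAAT or ATCGAT, letters bound by proteins of the Cut family to which CUX2 belongs, searched on both strands:
Mup3: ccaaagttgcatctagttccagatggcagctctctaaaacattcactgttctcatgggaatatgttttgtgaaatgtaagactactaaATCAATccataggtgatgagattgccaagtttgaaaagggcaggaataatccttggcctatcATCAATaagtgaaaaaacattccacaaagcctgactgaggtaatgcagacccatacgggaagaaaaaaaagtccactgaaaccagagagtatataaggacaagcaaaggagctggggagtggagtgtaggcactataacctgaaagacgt
Mup21: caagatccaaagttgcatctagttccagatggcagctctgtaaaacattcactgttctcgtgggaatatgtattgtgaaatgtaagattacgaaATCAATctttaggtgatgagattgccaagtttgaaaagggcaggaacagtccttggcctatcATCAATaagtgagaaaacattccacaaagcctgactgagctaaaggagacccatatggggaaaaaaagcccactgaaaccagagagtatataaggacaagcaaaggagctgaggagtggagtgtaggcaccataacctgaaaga
Aligned end to end, 276 of 306 columns were identical (90.2%). Each window held 2 matches, at -162 and -100 bases from the start site in Mup3 and at -156 and -94 in Mup21. Of all 32851 promoters of this length, 8.40% held at least 1 match. A downstream start of Cux2 (chr5:122047776-122048075, minus strand) also held a match, ATCGAT at -72:
Cux2: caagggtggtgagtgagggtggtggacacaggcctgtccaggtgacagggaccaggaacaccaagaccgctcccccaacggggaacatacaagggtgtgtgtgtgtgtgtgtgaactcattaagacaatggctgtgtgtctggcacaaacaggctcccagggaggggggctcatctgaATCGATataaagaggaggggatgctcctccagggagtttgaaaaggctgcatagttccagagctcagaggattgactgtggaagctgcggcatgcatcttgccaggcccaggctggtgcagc
Both windows of Bcl6 held letters of the kind that STAT5 and BCL6 bind, TTCNNNGAA, which reads the same on both strands and occurred in 8.30% of all promoters. The window at the annotated gene start held 1 match, and that of an internal start (chr16:23981234-23981533, minus strand), shown here, held 3 matches in capitals, at -168, -122 and -88:
Bcl6: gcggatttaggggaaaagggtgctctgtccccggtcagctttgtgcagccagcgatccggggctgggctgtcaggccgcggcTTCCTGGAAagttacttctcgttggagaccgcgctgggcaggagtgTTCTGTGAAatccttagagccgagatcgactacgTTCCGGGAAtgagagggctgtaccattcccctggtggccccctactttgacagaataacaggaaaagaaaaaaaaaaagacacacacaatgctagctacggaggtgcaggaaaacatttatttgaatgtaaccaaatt
The windows of Hsd3b5 and Selenbp2 matched neither pattern. A match describes letters only, and binding was not measured.

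Mup3 was far lower in most livers of 24 and 30 months than at any earlier age. At 2 months the 4 libraries read 3070.3, 3614, 4847 and 6453 CPM. At 9 months they read 2831, 3046, 3109, 6445 and 5835 CPM, and at 15 months 2710.0, 5259, 3759, 2209 and 3353 CPM. No library up to 15 months was below 2209 CPM. At 24 months the values were 128, 349, 567, 1443 and 2347 CPM and at 30 months 268, 182, 2550.3, 270.3 and 1167 CPM. All 10 old livers lay below the lowest 2-month liver, as in 1.62% of all genes tested, and 8 of 10 below the lowest of the 10 livers of 9 and 15 months, while the fifth library at 24 months and the third at 30 months reached the range of 15 months.

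Mup21 followed Mup3 at a lower level. Its 2-month libraries read 329, 306, 587 and 695 CPM, those of 9 months 336.2, 342, 377, 632 and 633 CPM and those of 15 months 286, 545, 348, 206 and 338.1 CPM. Old livers read 16.2, 44.1, 83.3, 161 and 258 CPM at 24 months and 38.8, 17.6, 252.2, 34.6 and 137 CPM at 30 months. Again all 10 old livers were below the 2-month range and 8 of 10 below the range of 9 and 15 months.

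Mup20, the darcin gene, stood highest at 9 months. It read 1669, 1105, 3454 and 4721 CPM at 2 months, 6198, 5019.7, 3509.7, 6287 and 4559.7 CPM at 9 months and 3100.1, 3739, 3159, 1539.5 and 2564 CPM at 15 months. At 24 months it read 217.9, 1134, 1382, 2705 and 2796 CPM and at 30 months 326, 151, 2688, 2198 and 1439 CPM. Only 3 of 10 old livers were below the lowest 2-month liver, since the first 2-month pair was itself low, and 6 of 10 were below every liver of 9 and 15 months.

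**Figure D1:**
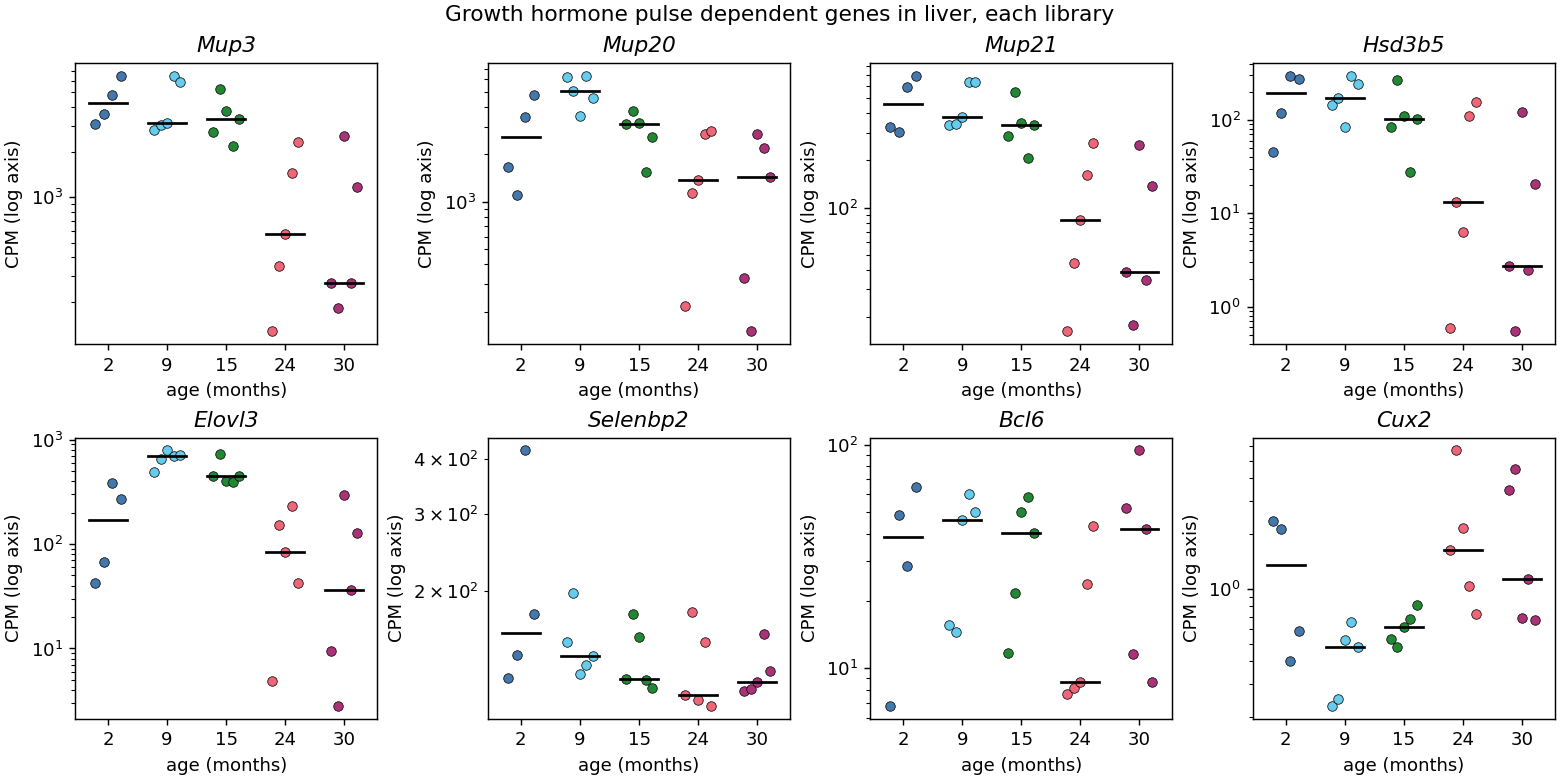
CPM of the 8 genes in liver (vertical log axis) against age in months, with 1 point per library and a bar at the median of each age. Mup3, Mup21, Hsd3b5 and Elovl3 spread widely at 24 and 30 months, where Hsd3b5 runs from 0.545 to 155 CPM, and Cux2 has its highest value, 5.68 CPM, at 24 months.

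Hsd3b5 and Elovl3, the enzymes of steroid and fatty acid metabolism, had the widest spread among old livers. Hsd3b5 read 45.7, 118, 294 and 273 CPM at 2 months, 144, 173, 84.0, 296 and 239 CPM at 9 months and 82.8, 267, 109, 27.3 and 103 CPM at 15 months. Old livers split, with 0.586, 13.1, 6.33, 109 and 155 CPM at 24 months and 2.72, 0.545, 121, 2.48 and 20.7 CPM at 30 months. The highest of the 10 old livers was 284 times the lowest, against 10.8 times among the 10 livers of 9 and 15 months. Thus 7 of 10 old livers were below the range of 9 and 15 months and the other 3 lay inside it.

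Elovl3 was the one member whose old and middle-aged livers did not overlap, and 0.313% of all genes tested had every old liver below every middle-aged one. It read 490.4, 652, 787, 694 and 706 CPM at 9 months and 445, 726, 403, 390.1 and 449 CPM at 15 months. All 10 old livers were lower, at 4.85, 153, 83.4, 232.1 and 42.6 CPM (24 months) and 9.36, 2.82, 294, 36.3 and 128 CPM (30 months). At 2 months it read 42.3, 67.8, 384 and 269.9 CPM, so young livers were also below the middle-aged range and overlapped the old ones.

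Selenbp2 varied little among livers, apart from 1 young library. It read 127, 143, 419 and 178 CPM at 2 months, 153, 198, 129, 136 and 142 CPM at 9 months and 126, 177, 157, 125 and 120.0 CPM at 15 months. Old livers read 116, 179, 113, 153 and 109 CPM and 118, 119, 124, 159 and 131 CPM at 24 and 30 months. Its SD on the log2 scale was 0.24 over the old livers, where that of Hsd3b5 was 3.01, and the third 2-month library stood above all 23 others.

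Bcl6, the male-biased repressor, differed widely between animals of every age. It read 6.77, 48.6, 28.7 and 64.7 CPM at 2 months, 15.5, 14.5, 46.0, 60.4 and 50.2 CPM at 9 months and 11.7, 21.7, 49.8, 58.5 and 40.1 CPM at 15 months. At 24 months it read 7.68, 8.13, 8.70, 23.8 and 43.1 CPM and at 30 months 52.0, 11.6, 94.2, 42.1 and 8.63 CPM. All 5 ages overlapped. The 3 lowest livers of 24 months were below every liver of 9 and 15 months, whereas the highest of all 24 was a 30-month liver.

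Cux2, the repressor of male-biased genes, was low throughout and higher in most old livers than in middle age. At 9 months it read 0.229, 0.250, 0.526, 0.659 and 0.481 CPM and at 15 months 0.530, 0.482, 0.615, 0.686 and 0.814 CPM. At 24 months it read 1.63, 5.68, 2.14, 1.03 and 0.725 CPM and at 30 months 3.45, 4.499, 0.695, 1.13 and 0.670 CPM, so that 7 of 10 old livers were above the highest liver of 9 and 15 months. The 2-month libraries fell apart, at 2.34, 2.12, 0.404 and 0.585 CPM, and the first pair overlapped the old livers.

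These young libraries also differed in other respects. The titles number the first pair and the second pair in different series. Serum amyloid Saa1, an acute-phase gene that inflammation induces in hepatocytes, read 26570.5, 2139, 291 and 122 CPM in the 4 libraries, against 49.1 to 943 CPM in the other 20 livers. The first pair was the lower in Mup20, Mup21, Mup3, Hsd3b5 and Elovl3 and the higher in Cux2, and the part of the acute phase in this was not tested. Another 2-month library, left out by the authors, read 3089 CPM of Mup3, 163 CPM of Elovl3 and 0.391 CPM of Cux2 by total reads.

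Between 24 and 30 months together and 2 months, the question of the study's own contrast of old and young, 3 of the 8 members were lower with an edgeR quasi-likelihood test adjusted over 16319 genes, against 5.23% of all genes called lower. None of the 8 was called higher, against 9.03%. In all 14.3% of genes were called, 2327, which became 561 without the third of the 2-month libraries, 509 without the fourth and 76 against the first pair alone. Mup3 fell, with a log2 fold change of -2.28 ± 0.57 (SE), adjusted p = 0.0143. Mup21 fell by a like amount, -2.20 ± 0.54 (SE), adjusted p = 0.0131. Selenbp2 fell less, -0.71 ± 0.22 (SE), adjusted p = 0.0328. The call for Selenbp2 rested on 1 library, since without the third 2-month liver its change was -0.17 with an edgeR adjusted p of 0.559.

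The other 5 members did not pass in this comparison. Hsd3b5 had a log2 fold change of -2.15 ± 0.97 (SE), adjusted p = 0.136, and Mup20 one of -0.87 ± 0.55 (SE), adjusted p = 0.300. Elovl3 had -0.95 ± 0.78 (SE), adjusted p = 0.442, Bcl6 -0.43 ± 0.61 (SE), adjusted p = 0.686 and Cux2 0.65 ± 0.55 (SE), adjusted p = 0.466. Hsd3b5 passed once the third 30-month library was left out (-3.22, adjusted p = 0.0183) and with limma voom (-3.72, adjusted p = 0.0480). All calls of the comparison leaned on the young group: without either the third or the fourth 2-month library no member was called. With 24 months alone as old none was called, and with only 2, 24 and 30 months in the fit 1 was. Against the first 2-month pair alone also none was called, and Mup3 had -1.85 with an adjusted p of 0.262. Against the second pair 3 were, with -2.60 and an adjusted p of 0.0304 for Mup3.

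**Figure D2:**
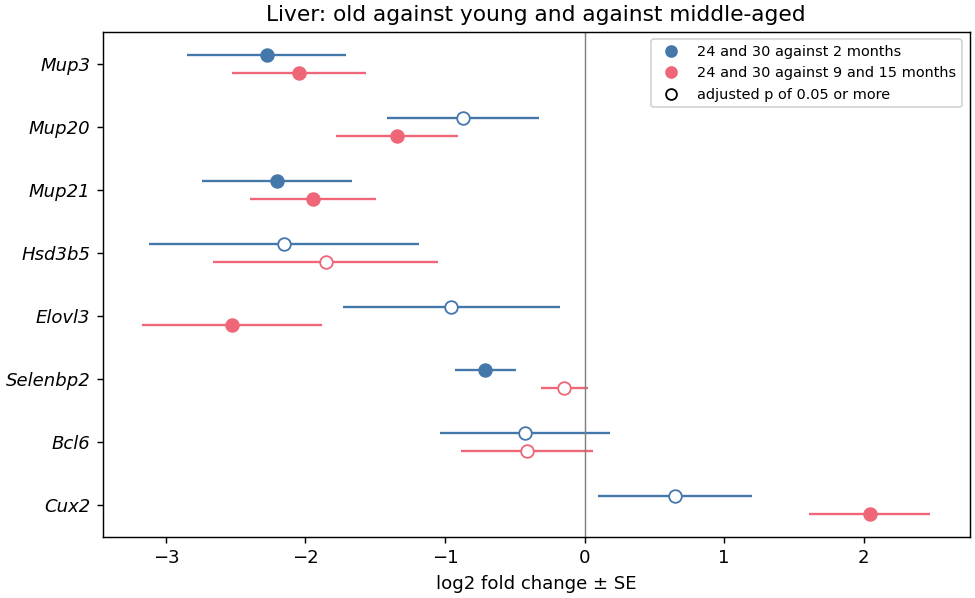
Log2 fold change with its standard error (horizontal axis) of each gene in liver, for 24 and 30 months against 2 months (blue) and against 9 and 15 months (red), with filled points where the adjusted p was under 0.05. Mup3 and Mup21 are filled in both comparisons, at -2.28 and -2.20 in the first, and Elovl3, Mup20 and Cux2 only in the second.

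Against 9 and 15 months, 4 of the 8 members were called lower, beside 11.2% of all genes, and 1 was called higher, against 14.3%, so that 5 were called where 25.5% of all genes were. Elovl3 fell most, -2.52 ± 0.65 (SE), adjusted p = 0.00944. Mup3 fell by 2.05 on the log2 scale, with an SE of 0.48 and an adjusted p of 0.00626, and Mup21 had -1.94 ± 0.45 (SE), adjusted p = 0.00607. Mup20 had -1.34 ± 0.44 (SE), adjusted p = 0.0281. Cux2 rose, 2.04 ± 0.43 (SE), adjusted p = 0.00361. The median over the 8 members was -1.60, beside 0.018 over all genes.

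Of the members that were not called, Hsd3b5 had -1.86 ± 0.80 (SE), adjusted p = 0.0924, Bcl6 -0.41 ± 0.47 (SE), adjusted p = 0.547 and Selenbp2 -0.15 ± 0.17 (SE), adjusted p = 0.555. Hsd3b5 again passed without the third 30-month library (-2.92, adjusted p = 0.00985). When 15 months alone stood for middle age, an alternative chosen after the data were seen that drops 5 libraries, no member was called, at -1.90 for Mup3 (adjusted p = 0.0620), -2.29 for Elovl3 (adjusted p = 0.0861) and 1.77 for Cux2 (adjusted p = 0.0790). Without the 2 old livers of lowest Mup reads, also chosen after the data were seen, 5 were called, at -1.78 for Mup3 and 1.86 for Cux2, and against 2 months 2 were.

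No member was called between successive ages by edgeR. The shares of all genes called there were 1.65% (9 against 2 months), 0.662% (15 against 9), 2.06% (24 against 15) and 0.325% (30 against 24). Leaving out 1 library brought the genes called from 270 to as few as 37 from 2 to 9 months (without the second 2-month library) and from 108 to 0 from 9 to 15 months (without the first 9-month library). From 15 to 24 months they came to as few as 77 (without the third 15-month library), and from 24 to 30 months from 53 to between 20 (without the fourth at 24 months) and 88 (without the fifth at 30 months). At an unadjusted p under 0.05, 1 member passed from 2 to 9 months, none from 9 to 15, 4 from 15 to 24 and none from 24 to 30 months. From 15 to 24 months these were Elovl3 (-2.23 ± 0.90 SE), Mup3 (-1.84 ± 0.67 SE), Mup21 (-1.62 ± 0.63 SE) and Cux2 (1.83 ± 0.60 SE), and DESeq2 called 1 member at that step. DESeq2 and limma voom called none at the other steps, and voom none here. In the test of any difference between the 5 ages, 4 members were called against 25.4% of all genes, namely Cux2 (adjusted p = 0.0189), Mup21 (0.0193), Mup3 (0.0225) and Elovl3 (0.0460). Without a filter on low counts that number was 1.

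All 21 Mup genes of the table were summed to 1 feature, so that the exchange of reads among these 21 does not change the sum. Reads that fit several genes may have been left out in counting, and a sum does not restore them. The level of the whole family is therefore not measured. Pseudogenes such as Mup-ps19 were not in the sum. Most of its reads were of Mup3 and Mup20, with 1998755 and 2034224 over all livers, so it largely repeats these members. The sum changed by -1.80 ± 0.52 (SE) from 2 months (edgeR adjusted p = 0.0253). From 9 and 15 months it changed by -1.74 ± 0.43 (SE, edgeR adjusted p = 0.00756). The share of all counted liver reads that was assigned to the 21 genes was 0.703 to 1.43% at 9 months and 0.0424 to 0.688% at 24 months. Library sizes computed without them left the counts of called members at 3 and 5.

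Seen animal by animal, the old livers ranged from nearly none of these transcripts to middle-aged levels. The first 24-month library held 3.96% of the median of the 9- and 15-month livers for Mup3, 6.01% for Mup20, 0.849% for Elovl3 and 0.462% for Hsd3b5. The second 30-month library was like it, at 5.63%, 4.15%, 0.493% and 0.431% of those medians. At the other end, the third 30-month library held 78.9% for Mup3 and 95.6% for Hsd3b5. The fifth 24-month library held 72.6% and 122%, yet only 7.45% for Elovl3.

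Of the 5 male-biased members Mup3, Mup20, Mup21, Hsd3b5 and Elovl3, all were below the lowest middle-aged liver in 6 of the 10 old libraries, 3 at 24 and 3 at 30 months. Of these 6 libraries 5 were above the highest middle-aged liver in Cux2. The members did not fall in step, since the fourth 30-month library held 60.6% for Mup20 but 8.36% for Mup3, and its Cux2 stood at 215%. The highest Cux2, 1076% of the median, was in the second 24-month library, where Mup3 was at 10.8%.

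**Figure D3:**
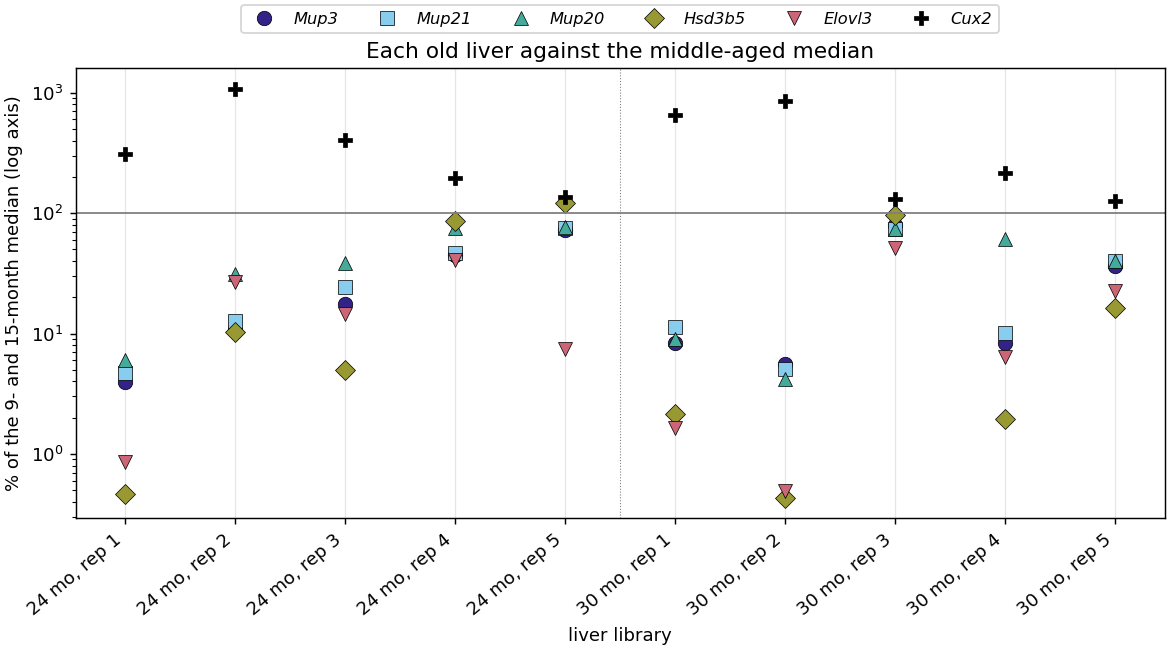
Each of the 10 old livers (horizontal axis) with the CPM of 6 genes as a percentage of their median over the 9- and 15-month livers (vertical log axis, line at 100%). The first 24-month and second 30-month libraries hold under 7% for Mup3, Mup20, Mup21, Hsd3b5 and Elovl3, and Cux2 is above 100% in all 10.

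Whether the members varied together among mice of one age was tested with the mean of each age subtracted from log2 CPM, over 24 livers and all 28 pairs. In a two-sided permutation test with 100000 permutations within ages, 13 pairs passed by Pearson's r after adjustment, 10 of them positive and 3 negative. By Spearman's rho 15 passed, and all 13 were among them. The 10 positive pairs are the 10 pairs that can be made of Mup3, Mup20, Mup21, Hsd3b5 and Elovl3. The tightest was Mup3 with Mup21, at r = 0.99 and rho = 0.97, and r was 0.99 within the 10 old and 0.96 within the 14 younger livers. These genes share 50-base words, a part that was not tested.

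Hsd3b5, on another chromosome, followed Mup3 nearly as closely, at r = 0.96 and rho = 0.92, with r = 0.85 among livers up to 15 months. The permutation p of both pairs was 1e-05 before adjustment, the smallest that so many permutations can give, and 9.3e-05 after it. Elovl3 had its highest r with Mup20, 0.85 (permutation test, adjusted p = 0.00568), and its lowest of the 4 with Mup3, 0.74 (adjusted p = 0.0194).

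Cux2 was negatively related to 3 of the 5 male-biased genes within ages. Its r was -0.67 with Mup20 (permutation test, adjusted p = 0.0267), -0.61 with Mup21 (adjusted p = 0.0455) and -0.59 with Hsd3b5 (adjusted p = 0.0479). With Mup3 it was -0.58, which missed the threshold by r (adjusted p = 0.0528) and passed by rho (-0.55, adjusted p = 0.0472). With Elovl3 it was -0.53 and did not pass (adjusted p = 0.0973). For Mup3 and Cux2 r was -0.72 in old livers and -0.17 up to 15 months, while Mup20 and Cux2 had -0.68 and -0.72. Without the pair of libraries farthest from the median of the first gene, r with Cux2 was -0.76 for Mup20, -0.68 for Mup21 and -0.46 for Mup3.

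Bcl6 passed with no other member. Its r lay between -0.037 with Selenbp2 and 0.47 with Mup3 (permutation test, adjusted p = 0.0898), and was -0.21 with Cux2. Selenbp2 passed with none by r and with Elovl3 by rho (0.55, adjusted p = 0.0307). Leaving out the 2-month livers left 10 pairs, leaving out the 2 farthest livers 12 and adding 1 to the CPM 11.

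**Figure D4:**
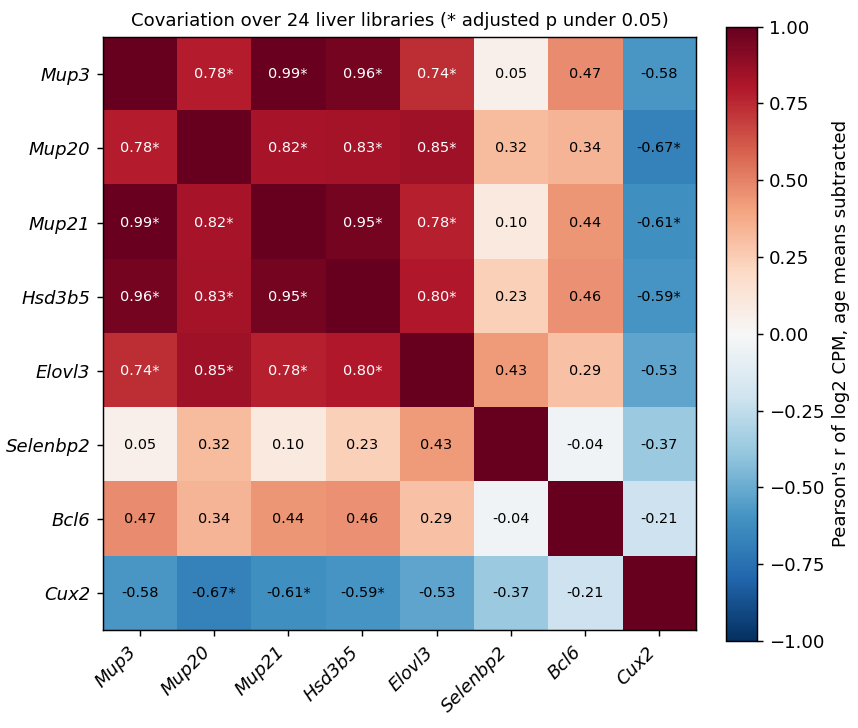
Pearson's r of log2 CPM for each pair of genes over 24 liver libraries after subtraction of age means (colour from -1 to 1), with a star where the adjusted permutation p was under 0.05. Mup3, Mup20, Mup21, Hsd3b5 and Elovl3 form a block from 0.74 to 0.99, and Cux2 is negative with all of them.

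Among 11842 to 11864 other expressed genes, those most like each member over the 24 livers were named as a description, with age left in and depth and animals shared. Closest to Mup3 were Ugt2b5 (Spearman's rho = 0.94), which conjugates steroids and drugs, the carboxylesterase Ces3a (0.93) and the anion transporter Slco1a1 (0.93). Closest to Mup21 were Hao1 (0.97), which oxidises glycolate in peroxisomes, Ugt2b5 (0.94) and the mitochondrial Lactb (0.94). Closest to Mup20 were Adh6-ps1 (0.91) and the transporters Slc22a30 (0.89) and Slc22a28 (0.88).

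Hsd3b5 was nearest to AC175831.1 (rho = 0.99), which lies beside it on chromosome 3 and holds 18.2% of its 50-base words, then to Ttc39c (0.93) and Ces3b (0.93). Elovl3 was nearest to Alas2 (0.93), the haem synthesis enzyme best known from red cell precursors, Cml5 (0.89) and Ces1e (0.89). Cux2 was nearest to Ssbp4 (0.90), to Lcn2 (0.84), an acute-phase lipocalin, and to Alox5ap (0.84), which serves leukotriene synthesis in leukocytes. Selenbp2 and Bcl6 had looser neighbours, Ndufa10 (0.83), Ube2s (0.79) and Dcaf12 (0.79) for the one and Ppp2r5a (0.68), Ttl (0.67) and Gm12913 (0.66) for the other.

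Other genes known to be male-biased in mouse liver moved the same way. Of 21 listed, 16 fell and none rose from 2 months, where 5.23% of all genes were called lower. The median log2 fold change was -1.44, beside -0.012 over all genes. From 9 and 15 months 15 fell and none rose (median -1.06), where 11.2% of all genes were called lower. Mup17 fell by 5.97 on the log2 scale from 2 months, and the complement gene C8b by 0.97. The glucuronosyltransferase Ugt2b38 fell by 1.29. The list holds 6 Mup genes, which can exchange reads. Its summed level was 11287, 8891, 19251 and 17603 CPM in the 2-month livers. At 24 months it was 2714 to 9753 CPM and at 30 months 2075 to 7664 CPM, so the second young liver overlapped the old ones. Calls from 2 months leaned on the young group, and the list was not recounted without those libraries.

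Of 28 genes listed as female-biased, 26 were tested, and 4 rose and none fell from 2 months. Among all genes 9.03% were called higher and 5.23% lower. Ntrk2, a neurotrophin receptor, rose by 5.01 on the log2 scale, Atp6v0d2 by 2.53 and Prom1 by 1.38. Ntrk2 read 0.912, 1.27, 0.987 and 0.805 CPM at 2 months and 31.8, 22.4, 32.6, 66.4 and 25.1 CPM at 30 months. Part of its rise came before old age, with 1.14 to 14.7 CPM at 9 and 5.92 to 20.6 CPM at 15 months. At 24 months it read 5.41 to 49.6 CPM. From 9 and 15 months 9 rose and 6 fell, where 14.3% of all genes were called higher and 11.2% lower. Cyp3a41a, Cyp3a41b and Cyp3a44, which are close in sequence, were among those that fell. The median of the 26 was 0.36 from 2 months and 0.39 from middle age.

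Of 16 genes of the receptor and its signalling, Ghr, Sirpa and Ptpn6 were called from 2 months, beside 14.3% of all genes. Ghr, the receptor, fell by 0.76 on the log2 scale (-0.76 ± 0.16 (SE), adjusted p = 0.00568), from 383, 634, 607 and 679 CPM at 2 months to 369.8, 227, 346, 345 and 311 CPM at 24 months and 296, 308, 457, 276 and 482 CPM at 30 months. The highest 24-month liver, at 369.8 CPM, was close to the lowest young one, at 383 CPM, which was the library highest in Saa1. At 30 months 2 of 5 livers, at 457 and 482 CPM, lay within the young range. From 9 and 15 months Ghr fell by 0.66. Sirpa rose by 1.34 and Ptpn6 by 0.67 from 2 months, and both are also expressed in leukocytes.

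The transducer Stat5b stayed at 49.2 to 78.7 CPM over all livers (0.15 ± 0.11 (SE), adjusted p = 0.374). The feedback inhibitors Socs2 and Cish, which each pulse induces for a short time, varied between animals, Cish from 2.12 to 58.5 CPM at 2 months alone. They did not pass, with 0.45 ± 0.64 (SE), adjusted p = 0.687 for Socs2 and -0.71 ± 0.78 (SE), adjusted p = 0.583 for Cish. Igf1, the hormone of growth that the liver makes in response to growth hormone, had -0.072 ± 0.10 (SE), adjusted p = 0.687. Of the 6 listed genes of the IGF system, Igfals, which stabilises IGF1 in blood, fell by 0.61, and Igfbp3, a carrier of IGF1, rose by 0.54. Among all genes 14.3% were called from 2 months.

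Srd5a1, which makes dihydrotestosterone from testosterone, fell by 0.74 on the log2 scale from 2 months. Of 15 liver transcription factors only the bile acid receptor Nr1h4 was called, at -0.67, and from 9 and 15 months none was by edgeR, with 1 at an unadjusted p under 0.05. Of 10 genes of the fasting response only G6pc was called from 2 months, at -1.43. Of 11 of lipid synthesis Me1 (-1.49) and Thrsp (-1.57) were, both lower. More of both lists were called from 9 and 15 months. Of lipid synthesis 7 of 11 were, 6 lower and 1 higher, and of the fasting response 4 of 10, 3 lower and 1 higher. From 15 to 24 months 6 of 11 of lipid synthesis were called, all lower, beside 2.06% of all genes called. Among all genes 14.3% were called from 2 months and 25.5% from 9 and 15 months.

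Other features of the livers moved with age too, and their part in the results on the members was not tested. Clock genes stood apart at 9 months, where Dbp read 0.381, 0.905, 0.557, 0.953 and 7.59 CPM. It read 15.4 to 29.7 CPM at 15 months and 2.86 to 77.9 CPM at 24 and 30 months. Between old and middle-aged livers 11 of 18 clock genes were called, 7 higher and 4 lower, beside 25.5% of all genes. From 2 months 2 of 18 were called, Npas2 (2.65) and Arntl, both higher, beside 9.03% of all genes called higher. The time of day of sampling was not given in the sources used here. Of 12 acute-phase genes 7 were called lower than at 2 months, beside 5.23% of all genes. The 7 were led by Saa3 (-4.66), Saa2 (-5.06), Saa1 (-4.44) and Orm1 (-1.65). The sum of all 12 was 188700.0, 31262, 17237 and 13486 CPM in the 4 young livers and 16549.7 to 32053 CPM at 30 months. From 9 and 15 months 2 of the 12 were called, Lcn2 (3.27) and Orm2 (1.61), both higher, beside 14.3% of all genes called higher.

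Hepatocyte markers were high in every liver, with Alb, the main protein of blood plasma, at 66453 to 127312 CPM and 0.12 ± 0.17 (SE), adjusted p = 0.688. The summed level of 12 hepatocyte markers was 112117 to 130815 CPM at 2 months and 98094 to 140011 CPM at 30 months, and none of the 12 was called from 2 months by edgeR, with 3 at an unadjusted p under 0.05. Most T and B cell markers rose. The sum of 10 T cell markers was 5.81 to 9.999 CPM at 2, 10.1 to 37.9 CPM at 15, 11.7 to 53.3 CPM at 24 and 13.8 to 179 CPM at 30 months. All 3 defining T cell markers, Cd3d, Cd3e and Cd3g, were above 0 in every liver. The highest Cd3e, 18.1 CPM, was in the second 30-month library, one of the lowest in the male-biased members. The liver lowest in Mup3, the first 24-month library, read 4.03 CPM of Cd3e. The first 15-month library, with 2710.0 CPM of Mup3, read 4.04 CPM.

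The sum of 10 B cell markers was 7.67 to 13.7 CPM at 2 and 21.7 to 133 CPM at 24 months, that of 10 macrophage markers 529 to 919.7 CPM and 576 to 1151 CPM, and that of 8 neutrophil markers 5.30 to 30.6 CPM and 9.16 to 57.3 CPM. Of the tested markers 7 of 9 for B cells, 9 of 10 for T cells, 3 of 10 for macrophages and 1 of 8 for neutrophils rose from 2 months and none fell. Stellate cells had 1 of 8 higher, bile duct 1 of 6 higher and endothelium 1 of 6 lower, Clec4g (-0.63), where 9.03% of all genes were called higher and 5.23% lower. From 9 and 15 months, where 14.3% of all genes were called higher, 7 of 9 B cell, 9 of 10 T cell, 5 of 10 macrophage, 7 of 8 neutrophil, 4 of 8 stellate and 3 of 6 bile duct markers rose. Among them were the granule genes Ltf (3.57), Camp (3.02) and Ngp (2.58) of neutrophils and the collagens Col1a1 (1.60) and Col1a2 (1.17), and the hepatocyte gene Ttr was called lower (-0.42). The neutrophil sum was 7.35 to 13.6 CPM at 9, 6.53 to 14.4 CPM at 15 and 21.7 to 37.0 CPM at 30 months, above every middle-aged liver. In bulk tissue fewer cells of a type and less RNA per cell cannot be told apart.

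Per length of annotated exon, Mup3 and Mup20 were the most abundant members at every age. The length was not corrected for 50-base words shared with other genes. These were 50.5% for Mup20, 43.9% for Selenbp2 and 21.2% for Hsd3b5, against 0% for Elovl3 and Bcl6. Comparisons between genes are uncertain to that extent. At 15 months the mean RPKM (CPM divided by the kilobases of annotated exon, computed here) was 3039 ± 892 for Mup20 and 3238 ± 1095 for Mup3 (SD, n = 5), which overlapped. Mup21 had 509 ± 185, Elovl3 244 ± 70.1, Hsd3b5 76.1 ± 57.8, Selenbp2 62.1 ± 10.9, Bcl6 5.43 ± 2.90 and Cux2 0.0620 ± 0.0130. At 30 months Mup20 had 1466 ± 1205, Mup3 831 ± 949 and Mup21 142 ± 146. Selenbp2, at 57.4 ± 7.43, Elovl3, at 47.6 ± 61.9, and Hsd3b5, at 19.1 ± 33.5, then lay within the spread of each other.

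Outside the liver the members fell into liver-restricted and shared genes. Mup21 and Hsd3b5 read at most 1.49 and 0.498 CPM in any library of brain, skin or blood. Mup3 reached 0.287 to 12.9 CPM and Mup20 0.124 to 17.2 CPM in skin and stayed under 0.1 CPM in brain and blood. The hepatocyte gene Alb read 1.92 to 186 CPM in skin, and both skin libraries with over 10 CPM of Mup3 were the highest in Alb, at 186 and 164 CPM, and in Apoa1, at 17.3 and 20.01 CPM. The part of liver RNA in these Mup values was not tested. Elovl3, which serves the sebaceous glands of skin, read 17.9 to 124 CPM there. Bcl6 read 58.4 to 133 CPM in skin, 12.7 to 45.9 CPM in brain and 16.3 to 37.9 CPM in blood. Cux2, a marker of upper-layer neurons of the cortex, read 52.8 to 99.6 CPM in brain, above every liver library. Selenbp2 read 8.57 to 47.6 CPM in skin, 2.31 to 6.14 CPM in brain and 3.26 to 9.74 CPM in blood.

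In the comparison of 24 and 30 months with 2 months, 1 of the 6 members tested in skin was called, where 43.9% of all genes were. Elovl3 fell there, -1.61 ± 0.30 (SE), adjusted p = 0.000921, from 31.0, 122, 111, 74.9 and 77.4 CPM at 2 months to 20.2, 17.9, 27.9, 20.2 and 24.7 CPM at 30 months. Of 8 sebaceous gland genes 2 fell and 1 rose in skin. Selenbp2 did not pass there (-0.83 ± 0.36 (SE), adjusted p = 0.0681), nor did Mup3 (-0.077 ± 0.75 (SE), adjusted p = 0.943). Leaving out the first 2-month skin library brought the called members to 3 and leaving out the fifth brought them to 2.

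In brain none of 3 members tested was called by edgeR, against 7.98% of all genes, with -0.0081 ± 0.08 (SE), adjusted p = 0.982 for Cux2 and 0.24 ± 0.11 (SE), adjusted p = 0.207 for Selenbp2, the one with an unadjusted p under 0.05. In blood none of 2 was called, against 21.6%, with 0.30 ± 0.17 (SE), adjusted p = 0.203 for Bcl6, and neither had an unadjusted p under 0.05. With limma voom also 0 were called in either tissue.

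The change from young to old in liver was tested against that in the other tissues for the members tested in both. Only Mup3 differed, from skin, where the difference of log2 fold changes was -2.14 ± 0.74 (SE, adjusted p = 0.0314) by edgeR, and 18.0% of all genes were called. With voom and the animal as a block it was -2.80 (adjusted p = 0.0174). Mup3 was low in skin and highest where Alb was, and the part of this in the difference was not tested. For Selenbp2 the difference from brain was -0.92 ± 0.32 (SE, adjusted p = 0.0609), where 7.24% of genes were called, and from blood -0.91 ± 0.36 (SE, adjusted p = 0.0683), where 15.8% were. For Elovl3, called in skin and not in liver, the 2 changes were not shown to differ, with a difference of 0.73 ± 0.64 (SE, adjusted p = 0.493).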

How the data were processed

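Per the labels and the study's methods, total RNA was sequenced as single 50-base reads after TruSeq preparation, aligned with TopHat 2.0.6 to GRCm38 and counted per gene (the submitters' processing notes name HTSeq 0.5.3p9 and featureCounts 1.4.3-p1). The deposited tables used here hold raw counts, and the RPKM tables of the authors were not used. Strand use in counting was not given in the sources used here, so overlapping genes are uncertain. Tissue and age in the labels gave the groups, and 3 libraries that the authors left out were described apart or used in an alternative. Replicates are numbered in accession order, and p-values describe the spread between them only.

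Genes passing filterByExpr were tested with the quasi-likelihood test of edgeR 4.0.16 (R 4.3.3, TMM scaling, robust), with age as a factor, Benjamini-Hochberg adjustment over all genes and a threshold of 0.05, after the script was tested on simulated data. CPM used TMM library sizes, and correlations used log2 CPM with a prior count of 2 in Python 3.11.15 (numpy 2.4.6, scipy 1.17.1). The SE of a fold change was its size over the square root of F. Alternatives were RLE, library sizes without Mup genes, other filters, limma 3.58.1 voom, DESeq2 1.42.0, other age groups, the added library and leaving out each library. Gene and exon positions came from GENCODE vM21. All genes of the lists were found in the table, 3 by identifier. Named genes were the members, Ghr, Stat5b, Igf1, Socs2, Cish, Alb, up to 4 called genes per list and direction by adjusted p in old against young, and the 3 nearest genes of each member outside its family by symbol, where log2 CPM averaged 1 or more. Some genes that this rule names are not reported here. Saa1, Dbp, Cd3e, the genes given only for 9 and 15 months, Apoa1 and the Cyp3a genes named were added after their values were seen. The members and lists were chosen with earlier results of these data known.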

Additional observations from a re-analysis of the deposited data

Results flagged for a closer look

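In groups of 4 to 10 libraries a library whose gap to its nearest neighbour was large for the range of its group was looked for in 95 groups, and 15 were found. Chance gives about 1 in 20 for independent and normally distributed values. The CPM here are skewed and groups share libraries, so 15 is not called an excess. In liver these were Hsd3b5 at 30 months, where the third library read 121 CPM and the next 20.7, Elovl3 at 15 months, where the second read 726 CPM and the next 449, and Cux2 at 24 months, where the second read 5.68 CPM and the next 2.14. In brain the seventh 30-month library was low in Cux2, at 52.8 CPM.

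In skin the third 9-month library was high in both Mup20, at 17.2 CPM (next 1.43), and Mup3, at 12.3 CPM (next 2.05). It held 186 CPM of the hepatocyte gene Alb, against 5.75 to 17.3 CPM in the other libraries of its age. The first 15-month skin library was high in both Mup3, at 12.9 CPM, and Elovl3, at 124 CPM, with 164 CPM of Alb against 5.57 to 51.3 CPM. Other high skin libraries were the third at 2 months for Mup20 (1.90 CPM), the second at 30 months for Mup3 (2.44 CPM), both the highest of their age in Alb (22.5 and 39.4 CPM), the fourth at 15 months for Selenbp2 (24.4 CPM) and the first at 9 months for Cux2 (2.66 CPM). In blood the third 9-month library was high in Bcl6 (33.1 CPM), and the first at 2 months and the fifth at 15 months in Selenbp2 (7.84 and 9.18 CPM).

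The old-young difference of Mup3 in liver differed from that in skin by -2.14 on the log2 scale (edgeR adjusted p = 0.0314), with -2.28 in liver and -0.077 in skin, where it was at most 12.9 CPM.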

How the results depend on the processing

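Over all 8 members, leaving out each liver library in turn gave 0 to 4 called members for 24 and 30 months against 2 months (3 in the full data), 4 to 6 against 9 and 15 months (5), 3 to 5 for any age difference (4), and 0 between successive ages. Against 2 months 1 member was called with only 2, 24 and 30 months in the fit, 0 with 24 months alone as old and 0 against the first 2-month pair alone. Against 15 months alone 0 were called. With DESeq2 1 was called between 15 and 24 months, and without a filter on low counts 1 for any age difference. These alternatives use fewer libraries, another test or more genes, and the cause was otherwise not tested. Pairs that covaried by Pearson's r numbered 10 to 13, and by Spearman's rho 15.

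Directions of uncalled members turned against the first 2-month pair alone, at 0.11 for Mup20, 0.84 for Elovl3 and -0.058 for Cux2, and with 30 months alone as old for Bcl6, at 0.17. In skin, leaving out 1 library gave 1 to 3 called members, -0.31 to 0.27 for Mup3, -0.31 to 1.19 for Mup20 and -0.062 to 0.23 for Cux2. In brain Cux2 ranged from -0.039 to 0.028. The liver minus skin difference of Elovl3 was -0.016 with voom.

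Title codes of brain libraries recur across ages. The 72 pairs of one code correlated at a median of 0.24, and down to -0.65. Over 536 pairs of different codes the median was -0.045. Whether libraries of one code belong together was not settled by these values, and the main brain fit did not use the code. With the code as a replicate block 0 brain members were called, at -0.028 for Cux2, 0.25 for Bcl6 and 0.28 for Selenbp2. Bcl6 and Selenbp2 also stayed uncalled without the brain libraries suspected to be near-identical. Cux2, at 0.229 to 5.68 CPM, was the member with the fewest reads in liver, from 6 to 179.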
